A study of Mus musculus with 4 samples.

Results

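The 2′-5′-oligoadenylate synthetase (OAS) genes and the 2-5A pathway were examined in ID8 cells, a mouse ovarian cancer cell line. The genes were taken by symbol, as Oas1a, Oas1b, Oas1c, Oas1g, Oas2, Oas3, Oasl1 and Oasl2, and 7 of these 8 were found among the 22063 genes of the expression table. Oas1b was not analysed here. The genes had been chosen by their values in the same comparison, in which they were higher in cells with an shRNA against USP9X. Their counts and fold changes are therefore given as a description with no test. Other genes of the pathway were not used to choose them, and these were tested. The list of these other genes was drawn up with earlier results of these data known, so its counts of calls are not independent of them.

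Total RNA came from cells with a control shRNA (shCtrl, genotype WT in the labels, 2 libraries) and from cells with an shRNA against USP9X, a deubiquitinase (shUSP9X, genotype USP9X knockdown, 2 libraries). According to the study's methods, the lentiviruses for shRNAs were made with pLKO.1-puro, and the control cells are assumed here to hold the same vector. Which shRNA sequence the shUSP9X cells held, whether TGF-β1 had been added and the oxygen level were not given in the sources used here, and nothing says that the libraries of a group came from separate cultures, so the p-values measure the spread between these libraries, which may be technical. The libraries held 17232006 and 15611363 estimated counts for shCtrl and 19978889 and 17021261 for shUSP9X. The libraries of a group were not copies of each other (chi-square of their counts, averaged over genes, 3.36 for shCtrl and 2.09 for shUSP9X, where sampling noise gives about 1), so each library was counted as its own replicate. The targeted gene followed its labels: Usp9x had 5169 and 4453 counts in the shCtrl libraries (the controls) and 390 and 346 in the shUSP9X libraries (the knockdown). Its log2 fold change was -3.85 (SE 0.06, adjusted p = 4.7e-26), and -2.35 when each library's trend on GC content and transcript length was removed. The groups differ in their shRNA as well as in Usp9x. An effect of less USP9X and another effect of the shRNA cannot be told apart here.

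OAS enzymes bind double-stranded RNA and then join ATP into 2′-5′-linked oligoadenylates (2-5A). 2-5A is a second messenger that leads to the cutting of single-stranded RNA, which stops protein synthesis. Interferon induces most OAS genes through the ISGF3 complex, which holds STAT2 and IRF9 and binds the interferon-stimulated response element (ISRE) in their promoters. In the mouse, the Oas1 gene has been copied several times, Oas2 and Oas3 have more than one copy of the synthetase unit within a protein, and the OAS-like proteins end in ubiquitin-like domains.

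All of the genes lie on mouse chromosome 5 (GRCm38). Oas2, Oas3 and 8 Oas1 copies occupy 191.3 kb at chr5:120730333-120921652, and Oasl2 and Oasl1 occupy 41.0 kb at chr5:114896936-114937915. Oas1a lies at chr5:120896256-120907521 and Oas1g at chr5:120876142-120887613, both on the minus strand, as are Oas1c (chr5:120800194-120812514), Oas3 (chr5:120753098-120777661) and Oas2 (chr5:120730333-120749853). Oasl2 (chr5:114896936-114912234) and Oasl1 (chr5:114923240-114937915) lie on the plus strand. Oas1b is annotated as a polymorphic pseudogene and runs the other way from Oas1c, with 120 bases between their starts.

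Promoter windows of RefSeq (GRCm38.p6, 250 bases before to 50 after the start) were matched for 6 of the 8 genes, with none for Oas1b and Oas2. The core of the ISRE, GAAANNGAAA on either strand, was present in the windows of Oas1a, Oas1g, Oas1c and Oas3 and in 3.44% of all 32851 windows. It was not found in those of Oasl1 and Oasl2. The letters TTCNNNGAA, the core of the interferon gamma-activated site (GAS), occurred once among the 6 windows, in Oas1a, and in 8.3% of all windows. The 30 bases around the ISRE core are given because 3 of the 4 windows hold the same element, and the capitals mark the bases matched by the core.

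Oas1a, chr5:120907526-120907555, minus strand: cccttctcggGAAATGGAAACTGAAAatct
Oas1g, chr5:120887614-120887643, minus strand: tgcccttctcggGAAATGGAAACTGAAAat
Oas1c, chr5:120812605-120812634, minus strand: tgggacTTTCAGTTTCCATTTCccgggaag
Oas3, chr5:120777711-120777740, minus strand: ggaggaGAAAACGAAAgtgaagggaggtga

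Oas1a and Oas1g held the 16 bases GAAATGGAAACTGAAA, in which 2 copies of the core overlap, and the last of these bases stood 5 and 3 bases before the start. The longest run shared by these windows was 73 bases and included the element. Oas1c held the same 16 bases in the opposite orientation, with the nearest base 99 bases before its own start and 7 bases before that of the neighbouring Oas1b. Oas3 held a single core, GAAAACGAAA, ending 66 bases before its start. A match of letters is a description of the window and does not show that a factor binds there. Nor does the lack of a match to these exact letters in the window show that a gene lacks an ISRE.

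Every one of the 7 genes was higher in shUSP9X than in shCtrl, with a median log2 fold change of 2.43 against 0.00 for all genes tested. The sum of the 7 genes was 1646 and 1550 counts in the shCtrl libraries and 10180 and 9017 in the shUSP9X libraries. After normalization, it went from 96.5 ± 2.19 to 525 ± 14.1 CPM (counts scaled to a common library size, with TMM factors; mean ± SD, n = 2 libraries per group here and below), a 5.44-fold difference. Among the 11448 genes tested, 33.8% were called higher and 33.6% lower at an adjusted p under 0.05, and in 41.2% the CPM of both shUSP9X libraries lay above both shCtrl libraries, so a call by itself was common in this comparison. Since the genes were chosen on this contrast, nothing is read from their own count of calls. Of all genes tested, 407 (3.56%) had a log2 fold change of at least 1, 157 (1.37%) of at least 2 and 83 (0.725%) of at least 3. In bulk RNA, more cells expressing a gene and more RNA per cell cannot be told apart.

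Oas2 and Oas3, whose enzymes hold several synthetase units, had the largest fold differences of the family. Oas2 had 38 and 23 counts in the shCtrl libraries and 642 and 622 in the shUSP9X libraries. Both shUSP9X libraries lay far above both controls, at 34.7 ± 3.14 CPM against 1.82 ± 0.521, and the log2 fold change was 4.23 (SE 0.16), or 18.8-fold. The control level was low, and the log2 fold change was 2.64 on the log2(FPKM + 1) scale and 3.76 on log2(FPKM + 0.1). These scales change both the measure and the added constant. With no constant added, the ratio of the mean FPKM values of Oas2 was 15.0, against 18.8 from the counts. Their parts were not separated further. Oas3 had 83 and 102 counts in the controls and 1249 and 1152 in the knockdown, a log2 fold change of 3.55 (SE 0.11) and 11.8-fold, and 2.79 on the log2(FPKM + 1) scale. The gap between the groups was many times the gap within either of them.

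The Oas1 genes code for the smallest synthetases, with a single unit. Oas1a, which encodes an active synthetase, had 185 and 197 counts in the controls and 1604 and 1377 in the knockdown. Its CPM was 11.6 ± 1.26 and 81.5 ± 0.403, and the log2 fold change was 2.82 (SE 0.08). Oas1g had 87.8 and 93.9 counts in shCtrl against 509 and 504 in shUSP9X, with a log2 fold change of 2.34 (SE 0.13). The counts of these 2 genes were not whole numbers in any library, yet together they came to 273, 291, 2113 and 1881, which shows that reads were divided between them. Of the 50-base words in their transcripts, 57.6% for Oas1a and 45.7% for Oas1g also occurred in another gene, almost all of them in each other. Oas1a took 67.8 and 67.7% of the pair in shCtrl and 75.9 and 73.2% in shUSP9X, and both the split and the separate fold changes are therefore uncertain.

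Oas1c had the lowest level of the genes in shUSP9X, with 18 and 32 counts in the controls and 87 and 71 in the knockdown. The groups did not overlap, but the controls stood apart from each other, at 1.04 and 2.02 CPM. Its counts were whole, and 9.82% of its 50-base words occurred in another gene, mostly Oas1e. The log2 fold change was 1.5 (SE 0.31), between 1.10 and 2.05 with a library left out and 0.87 on the log2(FPKM + 1) scale. The remaining Oas1 copies were silent or nearly so. Oas1e, Oas1f and Oas1h had 0 counts in every library, and Oas1d had a single count in the first shUSP9X library. A count of 0 allows up to 3 counts, or between 0.152 and 0.19 CPM depending on the library, and covers counting error only.

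The OAS-like genes had the highest levels. Oasl2, whose mouse protein keeps synthetase activity, had 578 and 523 counts in the controls and 3441 and 3097 in the knockdown, with a log2 fold change of 2.43 (SE 0.06). Oasl1, which lacks that activity and is known as a repressor of Irf7 translation, had 656 and 579 counts in the controls and 2648 and 2194 in the knockdown. Its log2 fold change of 1.83 (SE 0.06) was the second smallest after Oas1c. Neither gene's groups overlapped, and their transcripts share 0.138% (Oasl2) and 0 (Oasl1) of their 50-base words with other genes, so few reads could be divided between them and other genes.

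**Figure D1:**
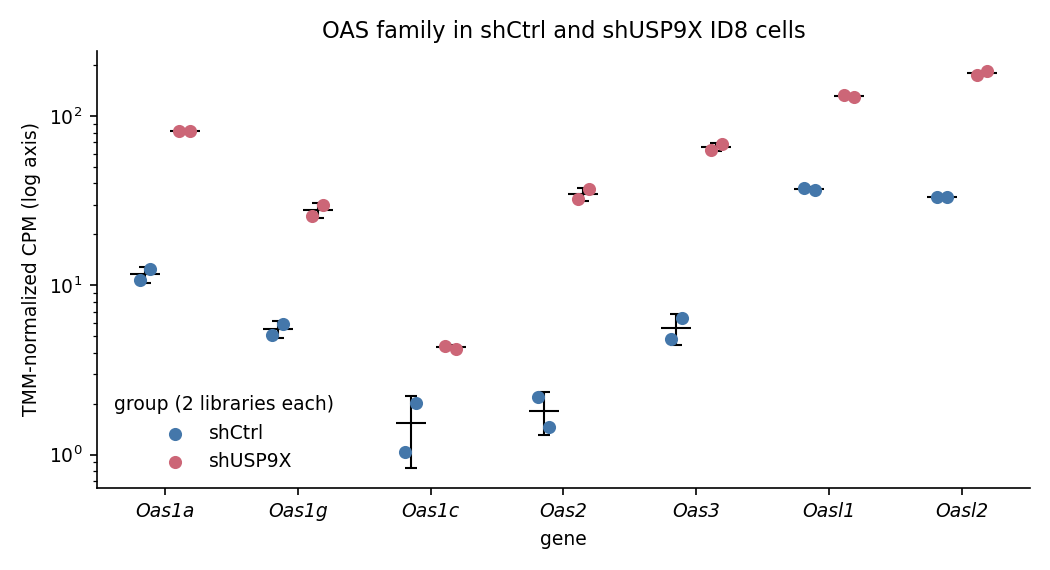
TMM-normalized CPM (log axis) of the 7 OAS genes in each library, with shCtrl in blue and shUSP9X in red; the bar and whiskers give the mean and SD of 2 libraries. Every red point lies above both blue points of its gene, with the widest gap for Oas2 (1.82 against 34.7 CPM).

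The levels can be ordered between genes with FPKM, which is scaled by transcript length. In shCtrl the order was Oasl1 (17.3 ± 0.334 FPKM), Oasl2 (15.5 ± 0.66), Oas1a (6.2 ± 0.704), Oas1g (3.16 ± 0.522), Oas3 (1.32 ± 0.0933), Oas1c (0.675 ± 0.31) and Oas2 (0.591 ± 0.297). The last 2 changed places between the shCtrl libraries and did not differ beyond their spread. In shUSP9X it was Oasl2 (78.0 ± 1.4 FPKM), Oasl1 (60.1 ± 1.13), Oas1a (42.8 ± 0.227), Oas1g (15.8 ± 1.54), Oas3 (15.1 ± 0.808), Oas2 (8.86 ± 0.812) and Oas1c (2.04 ± 0.19). Oas1g and Oas3 overlapped there, with Oas1g at 14.7 and 16.9 FPKM and Oas3 at 14.5 and 15.7. Thus Oasl1 and Oasl2 exchanged the first place, and Oas2 stood clear of Oas1c only in shUSP9X.

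The make-up of the family differed between the groups. Oasl1 and Oasl2 together held 75.0 and 71.1% of the family's counts in the shCtrl libraries and 59.8 and 58.7% in the shUSP9X libraries. Oasl1 alone held 39.9 and 37.4% against 26.0 and 24.3%, while the share of Oasl2 was 35.1 and 33.7% in shCtrl and 33.8 and 34.3% in shUSP9X. Oas3 took 5.04 and 6.58% of the family in shCtrl and 12.3 and 12.8% in shUSP9X, and Oas2 took 2.31 and 1.48% against 6.31 and 6.9%. These are shares of counts, to which longer transcripts add more. The family as a whole made up 0.00955 and 0.00993% of all counts in shCtrl and 0.051 and 0.053% in shUSP9X.

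**Figure D2:**
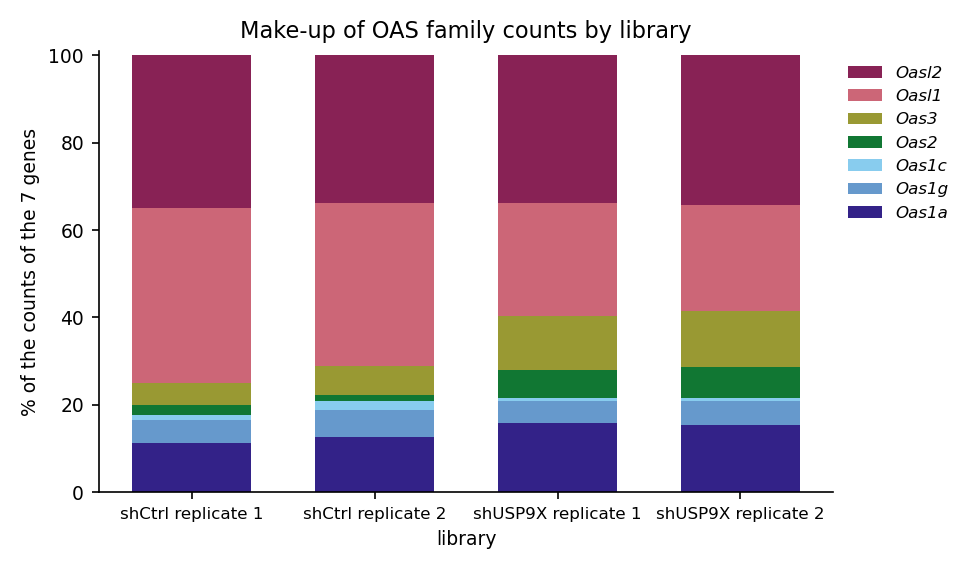
Share of the counts of the 7 OAS genes (%) held by each gene, stacked to 100% for each of the 4 libraries. The bands of Oas2 and Oas3 are wider and that of Oasl1 narrower in both shUSP9X libraries, while Oasl2 holds between 33.7 and 35.1% of the stack.

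Abce1, Pde12 and Akap7, the 3 genes listed here under the 2-5A pathway, were all lower in shUSP9X, with a median log2 fold change of -0.76. By comparison, 33.6% of all genes tested were lower. Each of the 3 calls was lost or turned with an offset for GC content and transcript length. Abce1, which encodes a ribosome recycling factor, had 5335 and 4653 counts in the controls and 3541 and 2968 in the knockdown (log2 fold change -0.76, SE 0.04, adjusted p = 6.7e-15). With the trend on GC content and transcript length taken out, its log2 fold change turned to 0.12 (adjusted p = 0.0056). Pde12, a phosphodiesterase that degrades 2-5A, had 695 and 695 counts in the controls and 675 and 634 in the knockdown, with a log2 fold change of -0.23 (SE 0.08, adjusted p = 0.015) that turned to 0.73 with that offset (adjusted p = 2e-08). Akap7, whose protein holds a 2-5A phosphodiesterase-like domain, had 96 and 80 counts against 54 and 56 (log2 fold change -0.81, SE 0.23, adjusted p = 0.0032), and -0.28 with the offset (adjusted p = 0.29). The call of Pde12 was also lost by DESeq2 and without shCtrl replicate 2 (log2 fold change -0.16). Without shUSP9X replicate 1, the calls of Pde12 (-0.15) and Akap7 (-0.67) were lost, and 3 genes of the whole list below were lower instead of 6. None of the 3 genes was called lower both with and without the offset. A trend on GC content or length that differs between the groups is removed by the offset whatever its source, which was not tested. The offset also brought the log2 fold change of Usp9x, the targeted gene, from -3.85 to -2.35.

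The wider list of 2-5A, RNA-sensing and interferon signalling genes held 25 genes, of which 24 passed the filter on low counts. Of these, 11 were higher (45.8%, against 33.8% of all genes tested), 6 were lower (25.0%, against 33.6%) and 7 were not called, and their median log2 fold change was 0.13. Among the 22 genes with at least 10 counts in every library, 9 were higher and 6 lower, against 34% and 34.2% of all genes so filtered. With the GC content and length offset the list had 15 genes higher and 5 lower, against 35.4% and 28% of all genes under the same offset.

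Among 9 sensors of RNA and their adaptors, 5 were higher (55.6%, against 33.8% of all genes tested). Of the others, 1 was lower (11.1%, against 33.6%) and 3 were not called. The 5 higher genes include Zbp1 and Dhx58, so nothing is read from this count. Zbp1, a sensor of Z-form nucleic acid, had 3 and 4 counts in the controls and 140 and 122 in the knockdown. Since the controls lay near the floor of 3 counts, the ratio of the summed counts per total, 33.2, had a wide counting interval of 15.9 to 83.5 (exact binomial, 95%). Dhx58, which encodes the regulatory RIG-I-like protein LGP2, had 18 and 7 counts in the controls and 157 and 117 in the knockdown (log2 fold change 3.30, SE 0.30), and its log2 fold change was 4.06 without shCtrl replicate 1 and 2.84 without shCtrl replicate 2. Adar, the RNA editing enzyme that limits sensing of self RNA, was higher by 1.48 on the log2 scale (SE 0.05), and Rigi, the sensor of 5′-triphosphate RNA, by 1.15 (SE 0.04). Zbp1 and Dhx58 passed the filter on low counts only through the shUSP9X libraries, where they were high, so their values are a description and their calls support nothing.

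Other sensors had smaller or no called differences. Mavs, the mitochondrial adaptor of RIG-I and MDA5, was higher (log2 fold change 0.53, SE 0.07), and Eif2ak2, which encodes the kinase PKR, was lower (-0.56, SE 0.06), with 1262 and 1090 counts in the controls and 959 and 799 in the knockdown. With the GC content and length offset, their log2 fold changes were 0.32 and -0.15, and both calls were kept. The log2 fold changes of Ifih1 (MDA5), Tlr3 and its adaptor Ticam1 were -0.08, -0.14 and 0.18 and did not pass the test. With the offset, those of Ifih1 and Tlr3 were 0.56 (adjusted p = 2e-05) and 0.84 (adjusted p = 0.00082). Cgas, a nucleotidyltransferase of the same fold as OAS that senses DNA, had a log2 fold change of 0.67 (SE 0.14, adjusted p = 0.0002), and Sting1, the receptor of its product, one of 0.63 (SE 0.08, adjusted p = 1.9e-07). Cgas and Sting1 were thus both called higher, as were 33.8% of all genes tested, and nothing is read from this count.

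The parts of the type I interferon pathway differed from each other. Ifnb1, the gene of interferon beta, had 0 counts in all 4 libraries. Of the subunits of ISGF3, both reported here were higher. Stat2 had 412 and 384 counts in the controls and 1695 and 1518 in the knockdown (log2 fold change 1.87, SE 0.07), and Irf9 had 217 and 232 against 991 and 829 (1.87, SE 0.10). The receptor and kinase genes upstream of them were not, since Jak1 (-0.32, SE 0.03) and Ifnar1 (-0.23, SE 0.06) were lower, and Ifnar2 (0.03) and Tyk2 (-0.07) did not pass the test. With the offset, the log2 fold change of Jak1 was -0.19 and it was still called lower. The call for Ifnar1 was lost without shUSP9X replicate 1, where its log2 fold change was -0.16. Of the interferon regulatory factors, Irf7, the inducible activator of interferon genes, had 185 and 151 counts in the controls and 3373 and 2818 in the knockdown, with a log2 fold change of 4.06 (SE 0.07, adjusted p = 4e-25) and no overlap between the groups. Irf2 was higher by 0.35 (SE 0.10, adjusted p = 0.0031), a call lost without shCtrl replicate 2 (log2 fold change 0.22). Irf1 (0.08) and Irf3 (0.07) were not called, although Irf1 was without shCtrl replicate 1 (0.13), and with the offset they were -0.18 (adjusted p = 0.0026) and -0.21 (adjusted p = 0.021). Mavs and Eif2ak2 lie outside the rule for named genes and were added after their values were seen.

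**Figure D3:**
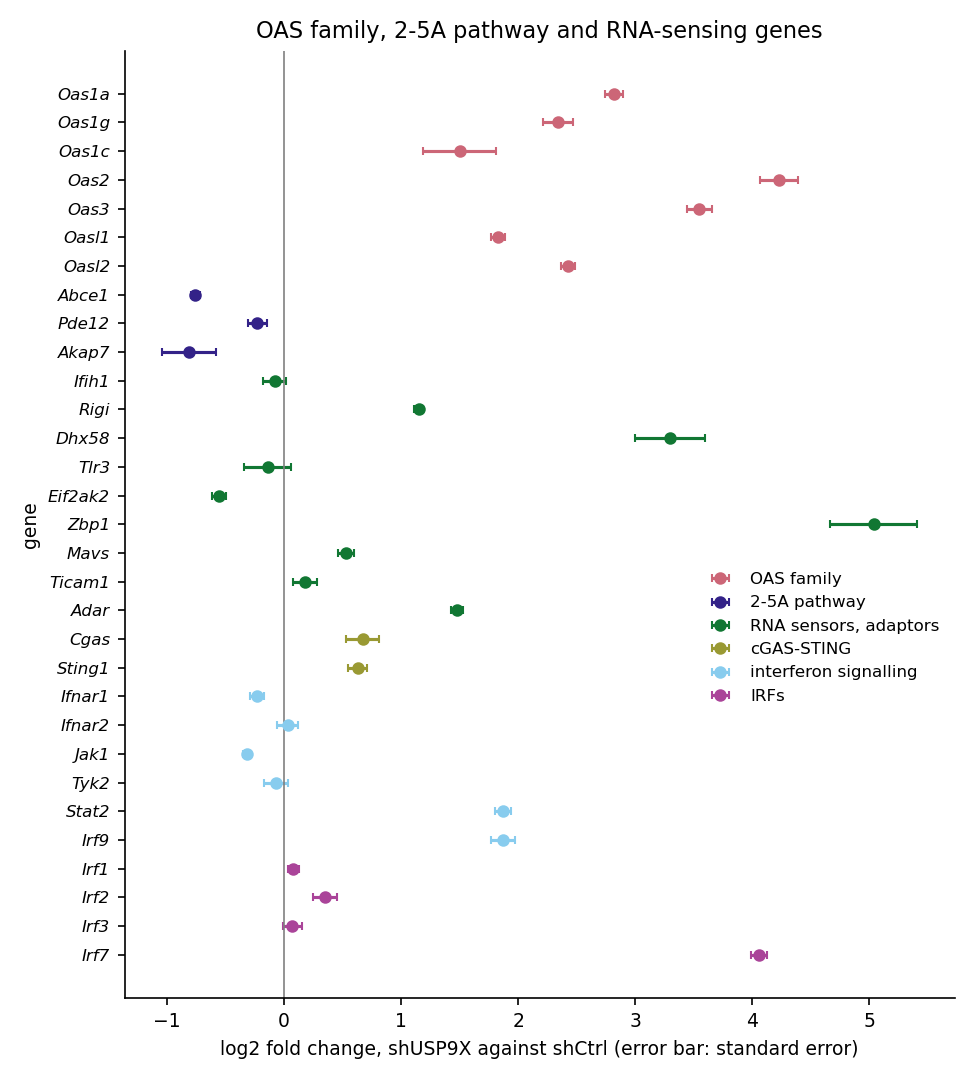
Log2 fold change (shUSP9X against shCtrl) of the 7 OAS genes and the 24 tested genes of the list, coloured by group; whiskers give the standard error and the grey line marks 0. The OAS genes lie between 1.5 and 4.23, the 2-5A pathway genes between -0.81 and -0.23, of which Abce1 and Pde12 turn to positive values with the GC content and length offset.

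The ISRE core was also searched in the promoter windows of the list, of which 22 genes had one. It was present in 5 of them (22.7%), Ifih1, Rigi, Eif2ak2, Stat2 and Irf2, against 4 of the 6 OAS windows (66.7%). These 5 included genes that were higher (Rigi, Stat2, Irf2), lower (Eif2ak2) and not called (Ifih1). Irf7, Irf9, Adar, Mavs and Cgas had a window and were higher without a match to these exact letters, which does not show that they lack an ISRE.

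The genes beside the Oas loci were examined to set the OAS values beside those of the same stretch of chromosome. Within 250 kb of either locus lay 26 other genes of the table, of which 19 passed the filter. Of these, 10 were higher (52.6%, against 33.8% of all genes tested), 9 were not called and 0 were lower by edgeR (1, Tchp, at an unadjusted p under 0.05, and 0 by DESeq2). Their log2 fold changes ran from -0.32 to 1.57 with a median of 0.26. Beside the Oas1-Oas2-Oas3 locus, 5 of 8 tested genes were higher (median 0.68), and beside the Oasl locus 5 of 11 (median 0.15). Rasal1, which passed the filter only through the shUSP9X libraries, is among the 10 and among the 5 beside the Oas1-Oas2-Oas3 locus. Nothing is read from these counts. With the GC content and length offset, 8 were higher and 2 lower (35.4% and 28% of all genes), and with scaling by library size only 10 were higher and 3 lower (32% and 35.2% of all genes). With at least 10 counts in every library, 10 of 18 were higher, against 34% of all genes so filtered.

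Beside the Oas1-Oas2-Oas3 locus, the immediate neighbours were silent or nearly so. Dtx1, 18.4 kb before the Oas1-Oas2-Oas3 locus, had 0 counts in shCtrl and 1 in each shUSP9X library, and Rph3a, 18.8 kb after it, had 0 in all. The nearest tested gene before the locus was Rasal1, a Ras GTPase-activating protein, at 50.7 kb, with 10 and 6 counts in the controls and 33 and 20 in the knockdown. It passed the filter only through the shUSP9X libraries, so its log2 fold change of 1.57 (SE 0.49), the highest value among the tested neighbours, is a description, and its call was lost without shCtrl replicate 2 (1.31) and without shUSP9X replicate 1 (1.29). The nearest after it was Ptpn11, the gene of the phosphatase SHP2, at 208.9 kb (log2 fold change 0.13, SE 0.04, adjusted p = 0.0044), which was not called without shUSP9X replicate 1 (0.10).

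Beside the Oasl locus, 2210016L21Rik began 4.2 kb after Oasl1 and had 433 and 460 counts in the controls and 780 and 723 in the knockdown (log2 fold change 0.61, SE 0.09, adjusted p = 1.2e-06), and 0.38 with the offset. The nearest tested gene on the other side, 1500011B03Rik at 73.5 kb, had a log2 fold change of 0.15 that was not called (adjusted p = 0.47). The tested neighbour closest to an OAS gene thus moved the same way as Oasl1 and Oasl2, by a smaller amount. Of all genes tested, 33.8% were called higher, so nothing is read from this gene.

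**Figure D4:**
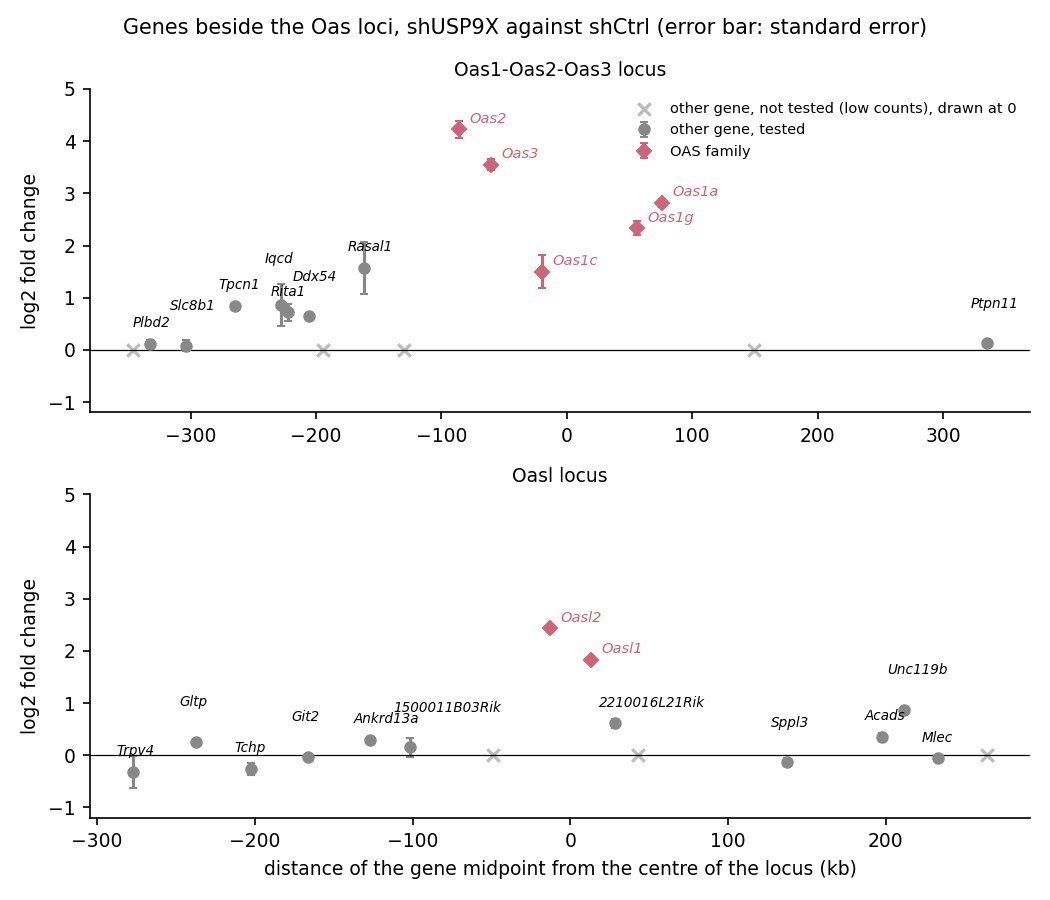
Log2 fold change of the OAS genes (red) and of the other genes within 250 kb (grey), by the distance of the gene midpoint from the centre of the locus in kb; whiskers give the standard error, and crosses drawn at 0 are genes with too few counts to be tested. The OAS genes stand above the neighbours, except that Oas1c (1.5) lies at the height of Rasal1 (1.57).

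Genes with a profile like that of the family were sought by distance, using log2 CPM (prior count 2) centred over the 4 libraries and the mean profile of the 7 genes. That profile was -1.41 and -1.25 in shCtrl and 1.29 and 1.36 in shUSP9X. The nearest genes were Apol9a (distance 0.087), Pira2 (0.124), Ifi44 (0.124), Nqo1 (0.129) and Cd300lf (0.184), where the median distance of all genes tested was 2.67. Apol9a had 270 and 298 counts in the controls and 2051 and 1819 in the knockdown, and its counts, like those of Pira2, were not whole numbers. Ifi44, a gene named for its induction by interferon, had 49 and 45 against 341 and 307 counts, and Nqo1, a quinone reductase, had 444 and 422 against 3221 and 2634. Pira2 and Cd300lf, which encode receptors of myeloid cells, had 0 counts in both shCtrl libraries and at most 13 in shUSP9X, so their profile rests on few reads and the prior count. With 4 libraries in 2 groups, a likeness of this kind follows mainly from the size of the difference between the groups.

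The cell type was checked by marker genes. Of 6 markers of ID8 cells, 5 were above 3 counts in every library (Krt8, Krt18, Krt19, Wt1 and Msln), with summed levels of 2238.8 and 2271.4 CPM in shCtrl and 2597.1 and 2543.7 in shUSP9X, and Krt19 was the most abundant. The sum holds changes in both directions, since Krt8 (log2 fold change 0.92, SE 0.04), Krt18 (0.64, SE 0.04) and Krt19 (0.12, SE 0.03) were higher in shUSP9X and Wt1 (-0.52, SE 0.04) and Msln (-0.47, SE 0.04) were lower, and their part in the OAS values was not tested. The sixth, Krt7, had 0 counts in the controls and 2 and 3 in the knockdown. Of 14 leukocyte markers, 1 was above 3 counts in both shCtrl libraries and 2 in both shUSP9X libraries, and their summed level was 4.38 and 4.3 CPM in shCtrl and 7.64 and 6.35 in shUSP9X. Cd68 was the most abundant of them, and C1qa, C1qb, Cd3e, Ms4a1, Nkg7, Siglech, Flt3 and Xcr1 had 0 counts in every library. Ptprc, the pan-leukocyte gene CD45, moved with the OAS genes, with 0 counts in both shCtrl libraries and 29 and 18 in shUSP9X, and its part in the result was not tested.

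Of the endothelial markers, Cdh5 and Kdr had 0 counts in all libraries and Pecam1 had 9, 19, 19 and 13. Of the fibroblast markers, Lum had 0 counts, while Dcn and Pdgfra were present and summed with it to 184 and 180 CPM in shCtrl and 125 and 123 in shUSP9X. Pdgfra had 272 and 215 counts in the controls and 34 and 39 in the knockdown, and the part of this fall in the OAS values was not tested.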

How the data were processed

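RNA was measured by sequencing in 2 shCtrl and 2 shUSP9X libraries, grouped by the condition and replicate in their labels. For every gene and library, the authors deposited estimated counts and FPKM values, with reads mapped to GRCm38, and the submitters' processing notes list fastp 0.18.0, Bowtie2 2.2.8, HISAT2, StringTie 1.3.1 and RSEM, with no role given. The deposited expected counts were not normalized; 6.4 to 6.69% of the values of a library were not whole, and all were rounded. For some genes, such as Oas2 and Usp9x, no single length relates the deposited FPKM values to these counts. The counts were filtered with filterByExpr, scaled by TMM and tested with edgeR 4.0.16 in R 4.3.3 (quasi-likelihood test, Benjamini-Hochberg adjustment over 11448 genes, threshold 0.05, no replicate block), a test planned for whole-number counts. The common biological coefficient of variation was 0.0352. The SE was the log2 fold change divided by the root of the F statistic. Alternatives were DESeq2 1.42.0, its size factors, library size only, 2 other filters, limma 3.58.1 on log2(FPKM + 1) and log2(FPKM + 0.1), a replicate block, an offset for GC content and length (known for 99.8% of the genes tested), both together, and each library left out. The procedure was tested on simulated data, the outcome of which is not given here. The OAS genes, the lists and the markers were chosen with earlier results of these data known, and some listed genes are not reported here and were left out of the counts. Named genes were all OAS genes, Usp9x, every 2-5A pathway gene, up to 4 genes with the largest called change per other group with those not called, the nearest tested gene on each side of each locus and the largest neighbour, and the 5 genes nearest in profile. Coordinates and transcript sequences came from GENCODE M21 (GRCm38) and promoter windows from RefSeq. With 2 libraries against 2, no permutation test can reach 0.05.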

Additional observations from a re-analysis of the deposited data

How the results depend on the processing

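The OAS genes were chosen on this contrast, so their values under the alternatives are a description and no sign of stability. All 7 were higher in each of the 14 alternatives, and of their 98 log2 fold changes under these, 75 stayed within 1 SD of the spread between replicates, 23 moved further and 0 changed sign. The median over the 7 genes was 2.31 with the GC content and length offset (with and without the replicate block), 2.26 on log2(FPKM + 1) and 2.32 on log2(FPKM + 0.1). The genes changed among all tested, 7707, ranged from 6563 with DESeq2 to 7821 without the filter. Lower genes beside the loci, 0 in the report, were 3 with library size only, which moved the median of all genes by -0.03, and 2 with the offset, with and without the block; leaving out a library gave 0 to 1. Lower genes of the 2-5A and RNA-sensing list, 6, ranged from 3 to 6 with a library left out, with the lone library of a group assumed to vary like the other group. The offset, alone and with the block, turned the log2 fold changes of Abce1 to 0.12, Pde12 to 0.73, Ifih1 to 0.56, Tlr3 to 0.84, Irf1 to -0.18 and Irf3 to -0.21; the cause was not tested. The replicate block by itself called 7665 genes and changed no call of Usp9x, the listed genes or the 4 named neighbours. The numbers mark no shared culture in the labels, and the deviations of same-numbered libraries from their group means correlated at -0.045. Depth limits Oas1c, Oas2, Dhx58, Zbp1, Rasal1, Ifi44, Pira2, Cd300lf and Ptprc, whose counts in the 2 shCtrl libraries sum to under 100.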
